A study of Mus musculus with 24 samples.

Results

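The genes described here are 4 connexins (Gja1, Gjb2, Gjb5 and Gjb6) and 4 claudins (Cldn1, Cldn4, Cldn7 and Cldn5), picked by name from the 18368 genes of the deposited expression table. All 8 were found in it. They were measured by bulk RNA sequencing in 24 skin libraries from 12 outbred CD1 mice that were 7 weeks old and labelled as being in the resting phase of the hair cycle (telogen). Each mouse gave skin of 1 site, abdomen, back or cheek, with 4 mice per site. From every mouse there was 1 library of a day 3 full-thickness excisional wound made with a 2 mm punch, and 1 library of healthy skin next to it, called unwounded here. Abdomen and back mice carried 2 wounds each and cheek mice carried 1. The unwounded skin therefore also came from wounded animals, no mouse carried a transgene, and the whole thickness of the skin was sequenced. In such tissue fewer cells of a type and less RNA per cell cannot be told apart.

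Connexins assemble into channels in the plasma membrane, and channels of neighbouring cells dock to form gap junctions, through which ions and small molecules pass from cell to cell. Gja1 encodes connexin 43, the most widespread connexin of skin. Gjb2 and Gjb6 encode connexins 26 and 30 of the epidermis and its appendages, and mutations of either are known to cause hearing loss and skin disease in people. Gjb5 encodes connexin 31.1 of stratified epithelia. Claudins are the strand-forming proteins of tight junctions, which seal the space between cells of a sheet. Cldn1 is needed for the water barrier of the epidermis, Cldn4 and Cldn7 are epithelial claudins, and Cldn5 seals the junctions of blood vessel endothelium.

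Values are FPKM (fragments scaled to transcript length and to the fragments mapped in the library), a level per transcript length that can be compared between genes. The FPKM of a library summed to between 490830 and 608888, and the sequencing depth is unknown. Markers of basal keratinocytes (6 genes) summed to 3664 to 5924 FPKM in unwounded skin and 5310 to 10917 FPKM in wounds. One library stood apart and went against its telogen label, the unwounded library of cheek mouse 4. It held Krt25 at 1133 FPKM, Krt71 at 1651 FPKM, Krt27 at 973 FPKM and Krt35 at 226 FPKM, keratins of the growing hair, whose summed FPKM was 3982 there against at most 66.9 in any other unwounded library and at most 18.0 in any wound. Of 13956 genes tested in unwounded skin, 33.2% lay outside the range of the other 11 unwounded libraries in that library, where the other libraries had between 8.28% and 23.2%. Results that rest on it are also given without cheek mouse 4, which in the tests leaves out both libraries of that mouse. The wound of abdomen mouse 4 was the weakest in keratins of wounded epidermis, with Krt6b at 586 FPKM against 1986 to 4999 FPKM in the other 3 abdomen wounds.

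In unwounded skin the median over 12 libraries was highest for Cldn1, at 87.7 FPKM (range 66.7 to 133). Gja1 followed with a range of 67.8 to 226 FPKM, so that these neighbours in the order overlapped. Gjb5 lay between 37.5 and 71.6 FPKM and Cldn4 between 29.8 and 73.8 FPKM, and these also overlapped. Cldn5 came next at 8.26 to 19.3 FPKM. Gjb2 (median 8.50 FPKM) and Gjb6 (median 1.96 FPKM) were low. Cldn7 was near the bottom of the table in all 24 libraries, at 0.06 to 0.66 FPKM, and did not pass the filter on low values (at least 0.5 FPKM in at least 4 libraries), so that 7 of the 8 genes were tested. In the wounds the order was led by Gjb2, with a median of 362 FPKM and a range of 76.4 to 737 FPKM. Gja1 followed at 87.5 to 127 FPKM and Cldn1 came next at 54.8 to 87.1 FPKM. Gjb6 moved from below Cldn5 to a median of 57.9 FPKM, overlapping Gjb5 (27.6 to 64.4 FPKM) and Cldn4 (27.9 to 46.3 FPKM).

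**Figure D1:**
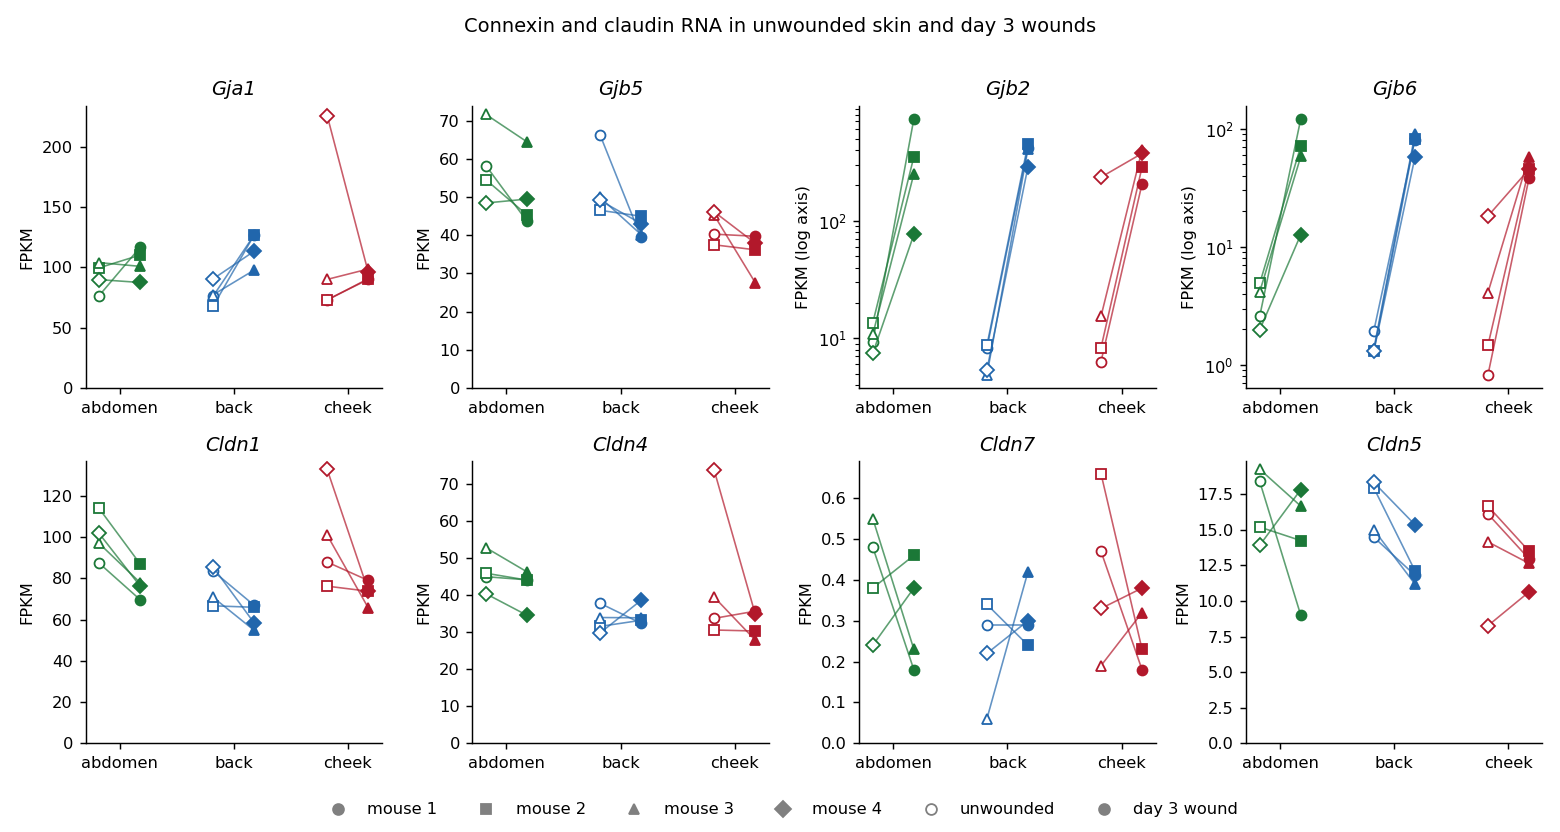
Level of each gene in FPKM (log axis for Gjb2 and Gjb6, linear from 0 for the others) in unwounded skin (open symbols) and day 3 wounds (filled symbols) of abdomen, back and cheek, 1 symbol per library with lines joining the 2 libraries of a mouse. The wounds hold Gjb2 at 76.4 to 737 FPKM, and the unwounded library of cheek mouse 4 stands above the other unwounded libraries at 235 FPKM.

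The wound response was compared within mice at each site, in 1 limma model of log2(FPKM + 0.5) with a term for each mouse. On that scale the change of low genes is understated. In abdomen wounds Gjb2 and Gjb6 rose and Cldn1 fell, 3 of the 7 genes tested, where 16.9% of all 14423 genes tested were called higher and 16% lower at a Benjamini-Hochberg adjusted p under 0.05. Back wounds gave the same 3 calls and a rise of Gja1, against 28% of genes called higher and 17.9% called lower. Cheek wounds gave the calls of the abdomen, against 19.7% called higher and 16.9% called lower. Gjb5, Cldn4 and Cldn5 were called at no site. The median log2 change of the 7 genes was -0.12 in the abdomen, 0.055 in the back and -0.12 in the cheek, beside -0.015, 0.066 and 0.012 over all genes tested.

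**Figure D2:**
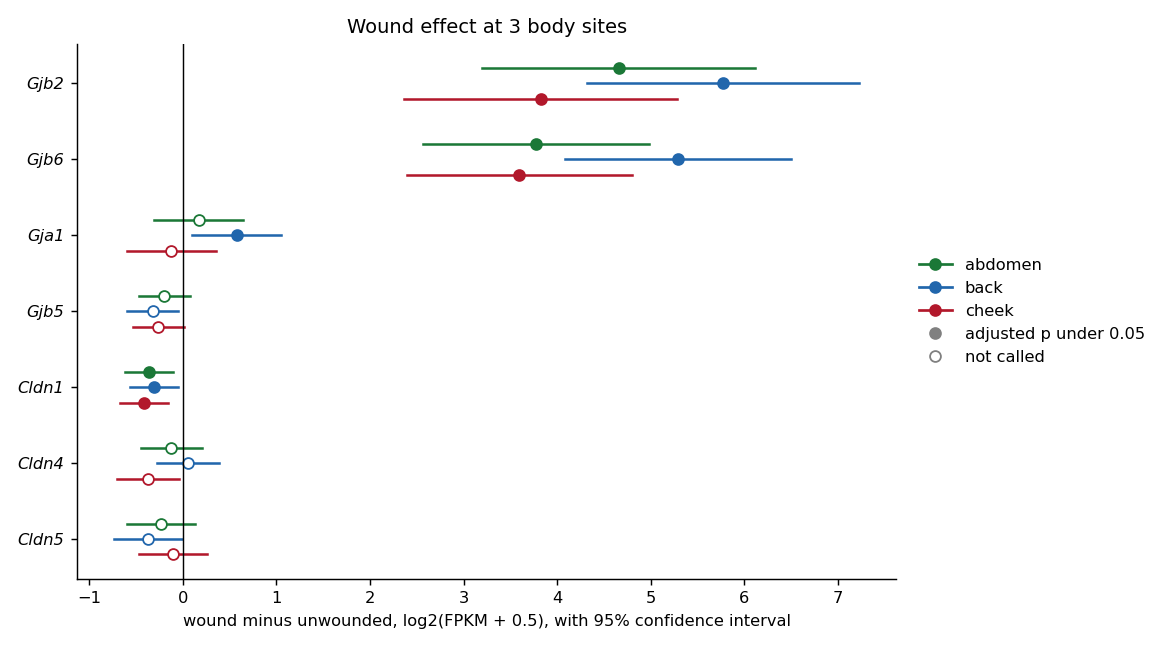
Wound minus unwounded difference of each gene on the log2(FPKM + 0.5) scale at the 3 sites, as the limma estimate with its 95% confidence interval. Filled points have an adjusted p under 0.05. Gjb2 and Gjb6 lie between 3.60 and 5.77 and Cldn1 between -0.41 and -0.31, and among the other genes only Gja1 in the back, at 0.57, has a filled point.

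Gjb2 rose in the wounds of all 3 sites. In unwounded abdomen it was at 9.32, 13.6, 10.8 and 7.45 FPKM in mice 1 to 4, and in the wounds of the same mice at 737, 350, 251 and 76.4 FPKM. In the back it went from 8.23, 8.70, 4.86 and 5.37 FPKM to 420, 449, 409 and 288 FPKM. In the cheek it went from 6.32, 8.30, 15.4 and 235 FPKM to 207, 287, 401 and 374 FPKM. The wound was higher than the unwounded skin of the same mouse in 12 of 12 mice, and every wound lay above 11 of the 12 unwounded libraries. Only the unwounded cheek of mouse 4 overlapped the wounds, and 10 of 12 wounds lay above it.

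The ratio of mean FPKM, wound over unwounded, was 34.4 for Gjb2 in the abdomen (10.3 to 79.1 in single mice) and 57.7 in the back (51.0 to 84.2). In the cheek it was 4.79, with single mice between 1.59 in mouse 4 and 34.6. The unwounded cheek mean behind it was 66.2 FPKM, and 9.99 FPKM without mouse 4. The limma log2 change was 4.66 (95% confidence interval 3.20 to 6.11, adjusted p = 0.000632) in the abdomen. It was 5.77 (4.31 to 7.23, adjusted p = 7.49e-05) in the back. In the cheek it was 3.82 (2.37 to 5.28, adjusted p = 0.00142), and 4.87 (adjusted p = 3.84e-05) without cheek mouse 4.

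Gjb6, the partner of Gjb2 in mixed channels of epithelia, moved with it from a lower level. Unwounded abdomen held 2.58, 4.89, 4.16 and 1.98 FPKM, and abdomen wounds held 121, 71.0, 58.0 and 12.7 FPKM. Back skin held 1.94, 1.30, 1.36 and 1.31 FPKM, and back wounds held 80.4, 82.2, 89.1 and 57.0 FPKM. Unwounded cheek held 0.82, 1.46, 4.08 and 18.2 FPKM, and cheek wounds held 37.9, 45.8, 57.7 and 45.2 FPKM. As for Gjb2, wounds were higher in 12 of 12 mice, the abdomen wound of mouse 4 was the lowest wound and the unwounded cheek of mouse 4 the highest unwounded library. The mean ratio was 19.3 in the abdomen and 52.2 in the back. In the cheek it was 7.61, over an unwounded mean of 6.13 FPKM that was 2.12 FPKM without mouse 4. The limma log2 change of Gjb6 was 3.77 (SE 0.54, adjusted p = 0.000732), 5.29 (SE 0.54, adjusted p = 3.87e-05) and 3.60 (SE 0.54, adjusted p = 0.000660), in that order. Without cheek mouse 4 the cheek change was 4.36 (adjusted p = 9.80e-05). The Gjb2 over Gjb6 ratio of FPKM averaged 3.19 to 7.52 in the unwounded groups and 5.09 to 6.74 in the wounds. The 7.52 was that of the cheek, which averaged 5.72 without mouse 4.

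Gjb2 and Gjb6 are neighbours on chromosome 14 on the same strand (GRCm38.p6), Gjb2 at chr14:57098602-57104702 and Gjb6 at chr14:57123301-57133611, with starts 28909 bases apart. The 250 bases before each RefSeq start are shown because the RNAs of both genes rose together, 5′ to 3′ on the minus strand, Gjb2 from chr14:57104703-57104952 and Gjb6 from chr14:57133612-57133861. Capitals mark matches to 4 motifs, each searched on both strands with its reverse complement. The first was the TATA box as TATAAA. A GC box was searched as GGGCGG, and the CCAAT box by its name. The AP-1 motif was searched as TGAGTCA, and none of the 4 overlaps another in these windows.
Gjb2: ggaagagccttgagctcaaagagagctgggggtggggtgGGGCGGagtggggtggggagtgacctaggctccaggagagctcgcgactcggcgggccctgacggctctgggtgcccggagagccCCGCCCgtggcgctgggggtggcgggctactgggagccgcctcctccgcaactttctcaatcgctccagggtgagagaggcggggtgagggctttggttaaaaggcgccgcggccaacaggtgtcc
Gjb6: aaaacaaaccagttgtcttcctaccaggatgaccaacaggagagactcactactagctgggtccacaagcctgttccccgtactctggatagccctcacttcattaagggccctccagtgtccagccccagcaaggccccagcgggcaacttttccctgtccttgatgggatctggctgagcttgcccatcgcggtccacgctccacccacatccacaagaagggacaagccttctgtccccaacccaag
The Gjb2 window was 69.2% G or C and held 2 GC boxes, ending 206 and 121 bases before the start. The Gjb6 window was 56.8% G or C and held none of the 4 motifs. A GC box was present in 32.7% of the 32841 mouse windows of this length, the TATA box in 12.4%, the CCAAT box in 33.9% and the AP-1 motif in 4.46%. A match is a run of letters and was not tested as a binding site.

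Over 24 libraries, Gjb6 was the gene among 14422 whose log2 level was most like that of Gjb2 (r = 0.985), and Gjb2 the one most like Gjb6. The same held for deviations from the 6 group means, with r = 0.947. These points share libraries, mice and the contrast of wound and unwounded skin. Without the unwounded library of cheek mouse 4 (23 libraries), the level of Krt6a, a keratin of wounded epidermis, was the most like that of Gjb2 (r = 0.995), followed by Gjb6 (r = 0.991) and Krt16 (r = 0.988). All 4 keratins of the wound keratinocyte list (Krt6a, Krt6b, Krt16 and Krt17) rose at all 3 sites. Their summed FPKM was 387 to 1285 in unwounded skin and 2107 to 14682 in wounds, lowest among the wounds in abdomen mouse 4. The ratio of Gjb2 to Krt6a FPKM averaged 0.154, 0.126 and 0.443 in unwounded abdomen, back and cheek (0.144 in cheek without mouse 4). In abdomen, back and cheek wounds it averaged 0.183, 0.171 and 0.142. In the unwounded library of cheek mouse 4 it was 1.34, with Krt6a at 175 FPKM and Gjb2 at 235 FPKM. The part of the keratinocyte makeup in the connexin change was not tested.

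**Figure D3:**
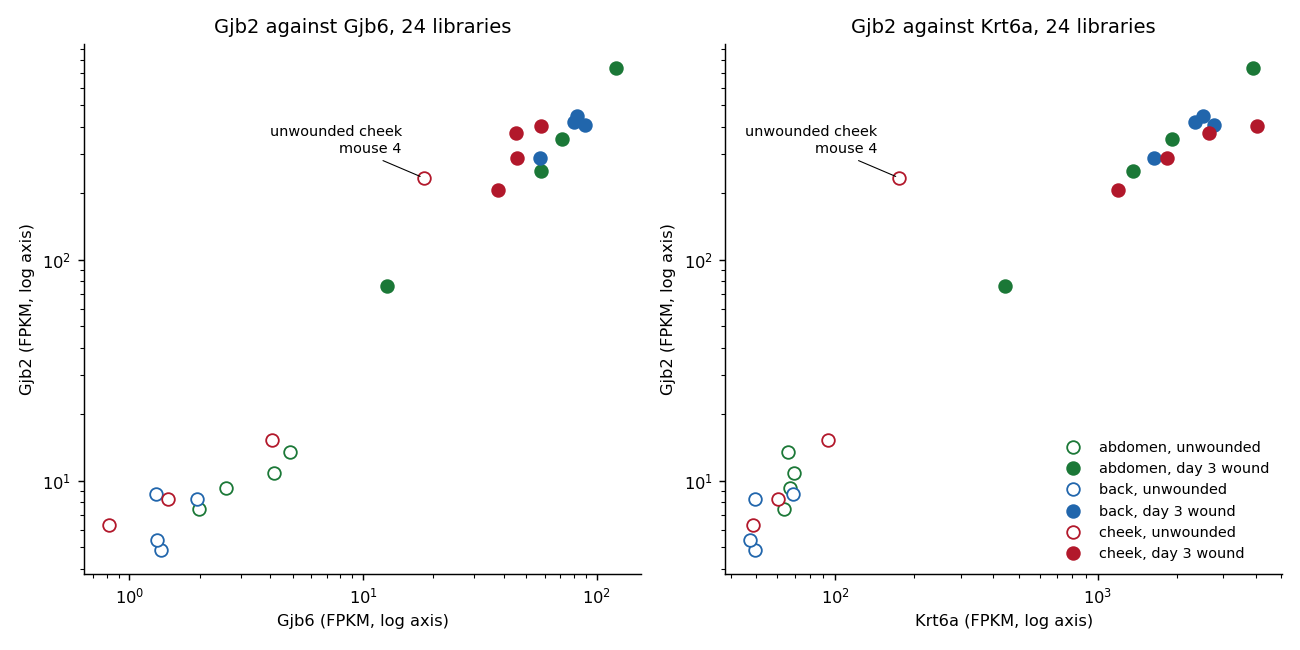
Gjb2 against Gjb6 and against Krt6a in 24 libraries, in FPKM on log axes, open symbols for unwounded skin and filled symbols for day 3 wounds, coloured by site. The levels of Gjb2 and Gjb6 are high or low in the same libraries. In the plot of Gjb2 and Krt6a the unwounded cheek library of mouse 4 lies apart, at 235 FPKM of Gjb2 and 175 FPKM of Krt6a.

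Gja1 (chr10:56377300-56390419) was plentiful in every library and was called in the back only. In unwounded back it was at 76.1, 67.8, 77.3 and 90.5 FPKM, and in back wounds at 127, 127, 97.8 and 113 FPKM, higher in 4 of 4 mice. The back log2 change was 0.57 (SE 0.22, adjusted p = 0.0485). In the abdomen, 76.5, 99.7, 104 and 89.9 FPKM stood against 117, 110, 101 and 87.5 FPKM in wounds, higher in 2 of 4 mice (log2 change 0.17, adjusted p = 0.587). In the cheek, 73.2, 72.9, 90.1 and 226 FPKM stood against 90.0, 90.7, 98.7 and 96.0 FPKM, higher in 3 of 4 mice. The cheek log2 change was -0.12 (adjusted p = 0.693) with all libraries and 0.25 (adjusted p = 0.191) without mouse 4. With all mice the back call sat near the threshold. It was lost when libraries were rescaled (adjusted p = 0.0613 with median-ratio scaling, 0.112 with quantile normalization) or when any 1 of 9 of the 12 mice was left out. It held in 4 of the 9 other settings. Without cheek mouse 4 the back change was again 0.57, with a smaller SE of 0.12 (limma adjusted p = 0.00233).

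Gjb5 (chr4:127354809-127358164) was lower in the wound than in unwounded skin in 11 of 12 mice, without a call. Unwounded abdomen held 58.2, 54.5, 71.6 and 48.4 FPKM and abdomen wounds 43.6, 45.3, 64.4 and 49.4 FPKM. Unwounded back held 66.3, 46.5, 49.9 and 49.1 FPKM and back wounds 39.4, 45.0, 40.2 and 43.0 FPKM, lower in 4 of 4 mice. In the cheek, 40.3, 37.5, 45.3 and 46.1 FPKM stood against 39.7, 36.2, 27.6 and 37.9 FPKM, lower in 4 of 4 mice. The log2 changes were -0.20 (adjusted p = 0.243), -0.32 (adjusted p = 0.0522) and -0.26 (adjusted p = 0.120), and the back value passed the threshold with either rescaling of the libraries. Without back mouse 1 the back change was -0.18 (adjusted p = 0.277), and without cheek mouse 3 the cheek change was -0.12 (adjusted p = 0.526).

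Among the claudins, Cldn1 was lower in the wound in 12 of 12 mice. Unwounded abdomen held 87.5, 114, 97.1 and 102 FPKM, and abdomen wounds 69.7, 87.1, 78.0 and 76.3 FPKM. The back went from 83.6, 66.7, 70.8 and 85.6 FPKM to 67.0, 66.0, 54.8 and 58.4 FPKM, and these overlapped. The cheek went from 87.9, 76.3, 101 and 133 FPKM to 79.0, 73.8, 65.7 and 74.1 FPKM, with an overlap between mice. The wound over unwounded ratio of means was 0.777, 0.803 and 0.735 at abdomen, back and cheek. The limma log2 change was -0.36 (95% confidence interval -0.62 to -0.10, adjusted p = 0.0347) in the abdomen. It was -0.31 (-0.57 to -0.053, adjusted p = 0.0478) in the back and -0.41 (-0.67 to -0.16, adjusted p = 0.0168) in the cheek. The fall was small and its call depended on single mice, while the direction was negative in every alternative run. Without cheek mouse 4 the cheek change was -0.27 (adjusted p = 0.0882). The abdomen and back changes were again -0.36 and -0.31 in that limma fit, with lower adjusted p of 0.0167 and 0.0236.

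The 250 bases before the RefSeq start of Cldn1 (gene at chr16:26356645-26371839, minus strand, GRCm38.p6) are shown as those of the claudin that fell, 5′ to 3′ on the minus strand from chr16:26371840-26372089, with the GC boxes in capitals.
Cldn1: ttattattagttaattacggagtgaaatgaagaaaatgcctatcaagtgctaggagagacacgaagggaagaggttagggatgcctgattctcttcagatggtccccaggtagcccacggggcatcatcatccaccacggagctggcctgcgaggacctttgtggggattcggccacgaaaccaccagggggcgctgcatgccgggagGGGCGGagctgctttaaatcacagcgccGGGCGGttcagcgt
This window was 55.6% G or C and held 2 GC boxes, ending 37 and 9 bases before the start. Among the 9 windows of the 8 genes, AP-1 motifs were found only in those of Cldn4 (2, beside 1 GC box) and Gja1 (1). The windows of Gjb5 and Cldn5 and 1 window of Cldn7 held other motifs of the search.

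Cldn4 (chr5:134945123-134946934) was called at no site. Unwounded abdomen was at 45.0, 45.9, 52.8 and 40.4 FPKM and abdomen wounds at 44.1, 44.1, 46.3 and 34.6 FPKM (log2 change -0.12, 95% confidence interval -0.45 to 0.20, adjusted p = 0.559). Unwounded back was at 37.8, 31.6, 34.0 and 29.8 FPKM and back wounds at 32.4, 33.2, 33.9 and 38.6 FPKM (log2 change 0.055, -0.27 to 0.38, adjusted p = 0.790), a sign that turned with either rescaling. Unwounded cheek was at 33.7, 30.6, 39.5 and 73.8 FPKM and cheek wounds at 35.7, 30.3, 27.9 and 35.0 FPKM. The cheek change was -0.37 (adjusted p = 0.0701) and -0.14 (adjusted p = 0.390) without mouse 4, whose unwounded value was the highest of all 24. Cldn7 (chr11:69964779-69967886) averaged 0.23 to 0.41 FPKM in the 3 unwounded groups and 0.28 to 0.31 FPKM in the wounds, and was not tested.

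Cldn5 (chr16:18776847-18778262) was measured beside the markers of blood vessel endothelium, the cells it is known from. Unwounded abdomen held 18.4, 15.2, 19.3 and 13.9 FPKM of Cldn5 and abdomen wounds 8.99, 14.2, 16.7 and 17.8 FPKM. Unwounded back held 14.5, 17.9, 15.0 and 18.3 FPKM and back wounds 11.8, 12.1, 11.2 and 15.4 FPKM, lower in 4 of 4 mice. Unwounded cheek held 16.1, 16.7, 14.2 and 8.26 FPKM and cheek wounds 13.0, 13.5, 12.6 and 10.6 FPKM, lower in all mice but mouse 4. Its log2 changes of -0.23 (adjusted p = 0.300), -0.37 (adjusted p = 0.0870) and -0.10 (adjusted p = 0.665) were not called. Without cheek mouse 4 the cheek change was -0.25 (adjusted p = 0.300). The back value passed the threshold in 2 of 9 other settings and in 1 of the 12 fits with a mouse left out, that without abdomen mouse 1 (adjusted p = 0.0209). The abdomen value rested on mouse 1, without which it was 0.018.

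Of the 10 genes of the endothelial list, 7 rose in abdomen wounds, 8 in back wounds and 7 in cheek wounds, and none fell. Without cheek mouse 4 the cheek count was 5. Over all genes tested the shares called higher were 16.9%, 28% and 19.7%. The list's summed FPKM was 116 to 176 in unwounded skin and 168 to 211 in wounds, and each of its genes was detected in every library. Pecam1, an adhesion molecule of endothelial junctions, rose by 0.50, 0.70 and 0.63 on the log2 scale at abdomen, back and cheek. Cdh5, the cadherin of the same junctions, rose by 0.87, 0.64 and 0.71. With quantile normalization the calls of Emcn and Esam in abdomen and of Robo4 in back and cheek were lost, that of Robo4 in cheek also with median-ratio scaling. Tek and Vwf were not called at any site, with Tek at log2 changes of -0.53, -0.34 and -0.24. The ratio of Cldn5 to Pecam1 FPKM averaged 0.517, 0.518 and 0.404 in unwounded abdomen, back and cheek (0.438 in cheek without mouse 4). In the wounds it averaged 0.317, 0.244 and 0.240, and it was lower in the wound in 12 of 12 mice. The ratio of Cldn5 to Cdh5 was also lower in 12 of 12 mice. Pecam1 and Cdh5 themselves rose in 12 of 12 mice. Tek, the only gene of the list lower in the wound in most mice, was lower in 9 of 12. Ratios of Cldn5 to Tek and to the rest of the list were not computed. These ratios are descriptions without a test.

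**Figure D4:**
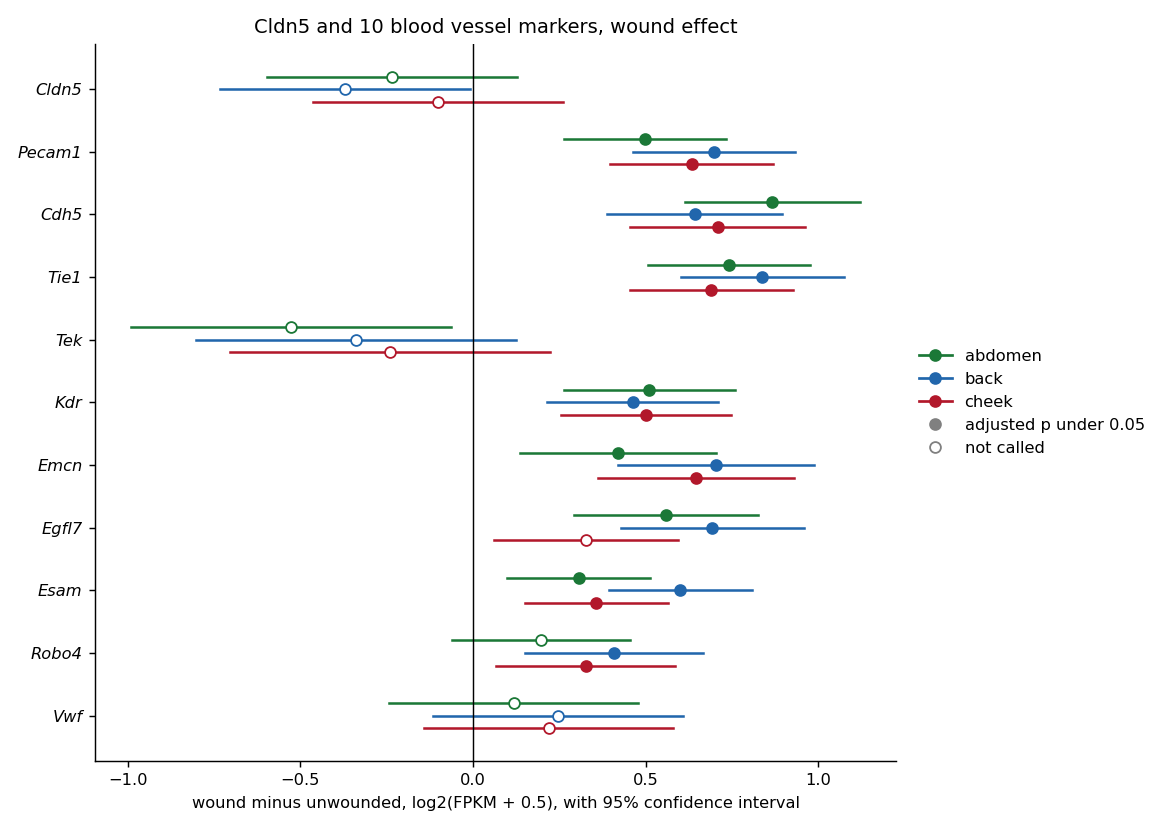
Wound minus unwounded difference on the log2(FPKM + 0.5) scale for Cldn5 and the 10 genes of the blood vessel endothelium list at the 3 sites, with 95% confidence intervals from limma, filled where the adjusted p is under 0.05. Cldn5 lies between -0.37 and -0.10, while Pecam1 lies between 0.50 and 0.70 and Cdh5 between 0.64 and 0.87. Tek and Vwf have no filled point.

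The wound responses of the 3 sites were then compared with each other. An F test of the 3 wound effects called 0 of the 7 genes (limma, adjusted p between 0.444 and 0.919, 0 at an unadjusted p under 0.05), where 0.0208% of all genes tested were called. The log2 response of Gjb2 was lower by 1.95 in the cheek than in the back (unadjusted p = 0.0615), and that of Gjb6 lower by 1.69 (unadjusted p = 0.0515). For Gja1 the cheek response was lower than the back response by 0.70 (unadjusted p = 0.0438, adjusted p = 0.695). Without cheek mouse 4, Gjb6 gave an unadjusted F test p of 0.0498 (adjusted p = 0.391). For cheek against back the differences without that mouse were -0.90 for Gjb2, -0.92 for Gjb6 and -0.33 for Gja1 (unadjusted p = 0.132, 0.138 and 0.102). A difference between sites in these responses was thus not detected with 4 mice a site, which does not show that the sites responded alike.

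In unwounded skin the 3 sites were compared over 4 mice each. None of the 7 genes was called in any pair of sites. At an unadjusted p under 0.05 there was 1 gene in back against abdomen (Cldn1), 1 in cheek against abdomen (Gjb5) and 2 in cheek against back (both of them). The share of all genes at that unadjusted threshold was not computed. The shares of called genes that follow are at an adjusted p under 0.05 and cannot be set beside these counts. In back against abdomen 0.53% of the 13956 genes tested were called higher and 2.14% lower, in cheek against abdomen 1.33% and 1.23%, and in cheek against back 0.559% and 0.494%. The median of all genes was shifted by -0.12 in back against abdomen and by 0.14 in cheek against back. An exact permutation test of 4 against 4 mice has a smallest two-sided p of 0.029, reached where groups do not overlap. Of all genes tested, 10.7% lay lower without overlap in back than in abdomen, 4.49% in cheek than in abdomen and 2.2% in cheek than in back. The exact test reached 0.029 for Gjb5, lower in cheek (42.3 ± 4.11 FPKM, SD, n = 4) than in abdomen (58.2 ± 9.82 FPKM) and back (52.9 ± 9.02 FPKM). In back, Gjb6 (1.48 ± 0.31 FPKM), Cldn1 (76.7 ± 9.30 FPKM) and Cldn4 (33.3 ± 3.48 FPKM) lay below all abdomen mice (3.40 ± 1.35, 100.1 ± 11 and 46.0 ± 5.13 FPKM). These p-values are unadjusted. In limma the log2 difference of Cldn4, back minus abdomen, was -0.46 (adjusted p = 0.241), and without cheek mouse 4 it was called (adjusted p = 0.0490).

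In the wounds, Gjb5 and Cldn4 were lower in cheek than in abdomen. The Gjb5 log2 difference was -0.51 (adjusted p = 0.0335), from 50.7 ± 9.47 FPKM in abdomen to 35.3 ± 5.36 FPKM in cheek, without overlap. Of all genes tested, 5.4% lay lower without overlap in cheek than in abdomen wounds and 13.6% higher. The Cldn4 difference was -0.39 (adjusted p = 0.0412), from 42.3 ± 5.23 to 32.2 ± 3.73 FPKM, with an overlap. Of all genes, 7.52% were called higher and 3.32% lower in that comparison. Neither call held when abdomen mouse 3 or cheek mouse 2, 3 or 4 was left out, and that of Cldn4 was also lost without abdomen mouse 1 or 2, or back mouse 1, 2 or 3. Back against abdomen wounds gave 0 calls in limma (0.506% of genes higher, 0.763% lower). Cldn1 and Cldn4 had an unadjusted p under 0.05 there, and the exact test reached 0.029 for Cldn1 (5.33% of genes lay lower without overlap), at 61.5 ± 5.90 FPKM in back and 77.8 ± 7.16 FPKM in abdomen. Cheek against back wounds gave 0 calls (1.9% of genes higher, 0.599% lower), with Cldn1 and Gja1 at an unadjusted p under 0.05. Here too the shares of genes are at an adjusted p, and the share at an unadjusted p under 0.05 was not computed.

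The unwounded library of cheek mouse 4 lay outside the range of the other 11 unwounded libraries in 6 of the 8 genes, where 33.2% of all genes tested did so. Relative to the mean of the other 3 unwounded cheek libraries, Gjb2 was at 23.5 times, Gjb6 at 8.56 times, Gja1 at 2.87 times, Cldn4 at 2.13 times and Cldn1 at 1.5 times. All 5 lay above the other 11 unwounded libraries. Cldn5 was at 0.528 times and lay below them, and Gjb5 lay within their range. Cldn1, which fell in wounds, was thus at its highest level of all 24 libraries here. The library also held RNA of Gja3 (4.86 FPKM), Cldn14 (3.28 FPKM) and Cldn17 (0.81 FPKM), which no other unwounded library held above 0.20, 0.14 and 0.06 FPKM. All 4 hair keratins lay above the other 11 unwounded libraries in it. Below all 11 lay 2 of the 10 endothelial genes (Pecam1 at 27.4 FPKM and Emcn at 13.7 FPKM), 4 of the 5 fibroblast genes and 3 of the 4 adipocyte genes, with Adipoq at 42 FPKM. The part of these cell types in the connexin and claudin values was not tested.

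The makeup of connexin RNA differed between wounds and unwounded skin. The summed FPKM of the 20 connexins in the table was 346, 280 and 393 in unwounded abdomen, back and cheek (285 in cheek without mouse 4) and 775, 795 and 661 in the wounds. Gjb2 made up 2.95 ± 0.52%, 2.44 ± 0.73% and 10.7 ± 14.7% of it in unwounded skin (SD, n = 4), with 3.42 ± 1.03% in the cheek without mouse 4. In the wounds it made up 40.1 ± 17.2%, 49.0 ± 3.78% and 47.3 ± 6.97%. Gja1 held 26.9% to 28.8% in unwounded skin and 14.4% to 15.0% in wounds, although its own level did not fall in a called comparison. The ratio of Gjb2 to Gja1 averaged 0.111, 0.0897 and 0.352 in unwounded skin (0.124 in cheek without mouse 4) and 3.21, 3.39 and 3.36 in wounds.

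The claudin sum was lower in wounds. Over 22 claudins it was 249, 211 and 226 FPKM in unwounded skin (209 in cheek without mouse 4) and 176, 143 and 148 FPKM in wounds. Cldn1 held 36.3% to 43.5% of it in unwounded skin and 43.2% to 49.5% in wounds, a larger share of a smaller sum, and Cldn4 15.8% to 19.0% and 21.7% to 24.2%. Cldn10 held 18.4%, 24.4% and 13.5% in unwounded skin and 10.5%, 11.6% and 6.57% in wounds. Other cell types moved in the same wounds. All 4 neutrophil markers rose at all 3 sites, with summed FPKM of 7.72 to 36.6 in unwounded skin and 335 to 2375 in wounds. Of 4 macrophage markers 3, 4 and 4 rose in abdomen, back and cheek (summed FPKM 127 to 250.4 and 283 to 458), and of 4 adipocyte markers 4, 4 and 3 fell (399.9 to 1111 and 321 to 732). Their part in the family sums was not tested.

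**Figure D5:**
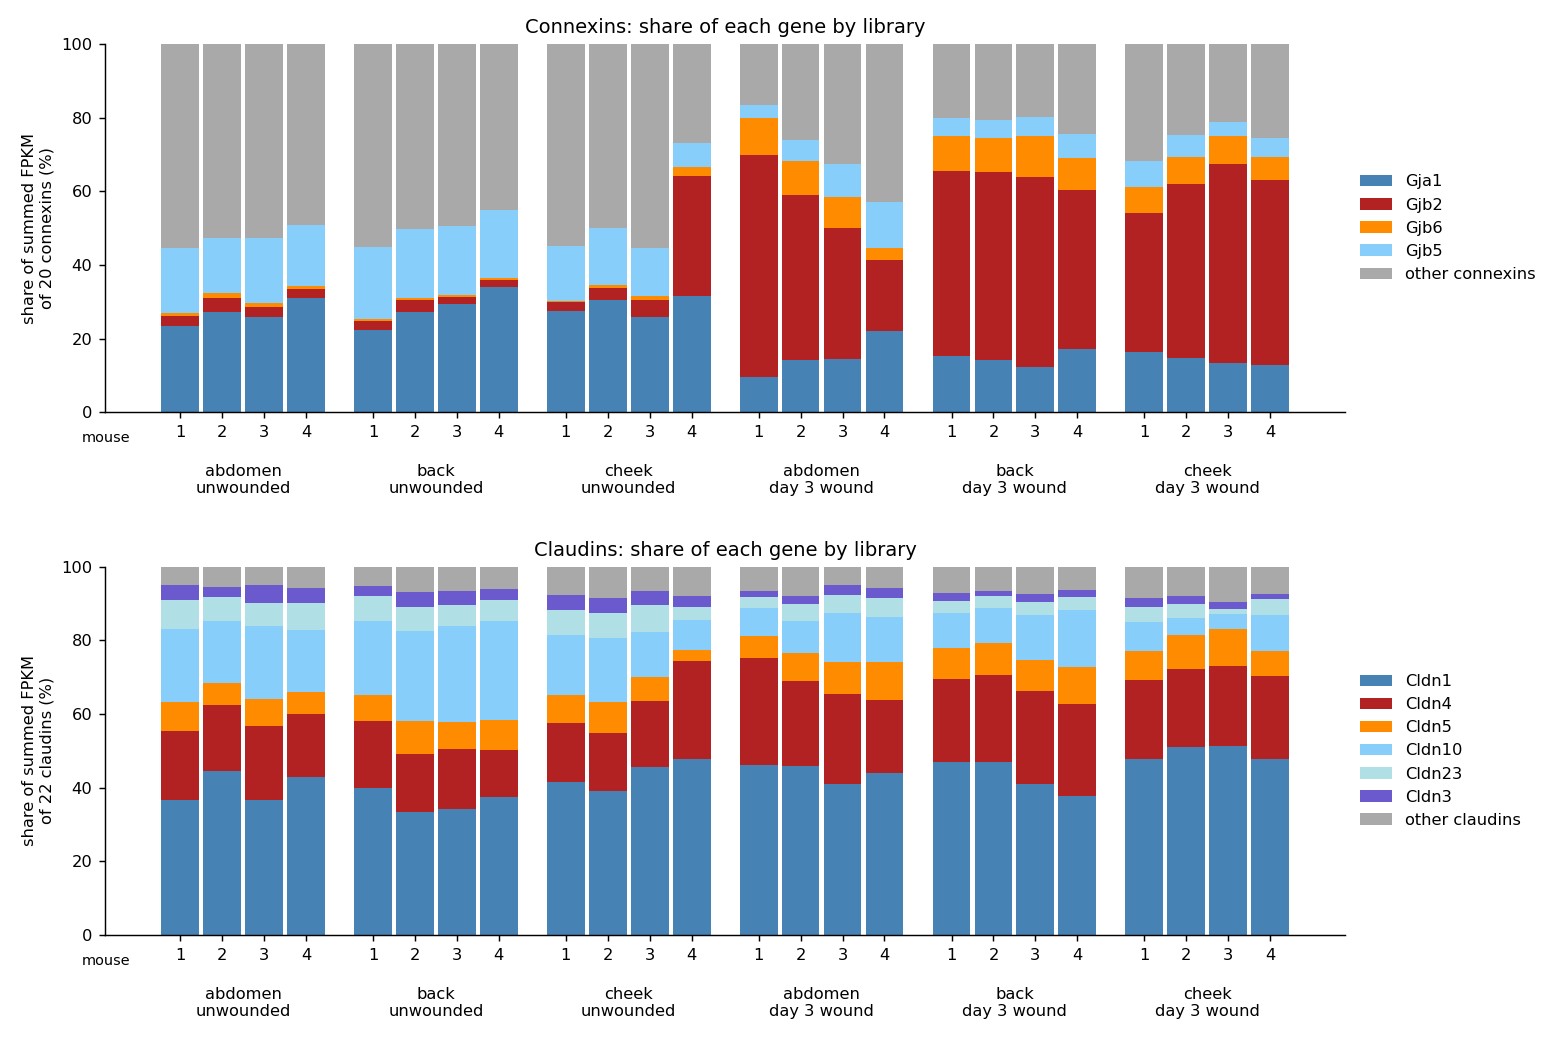
Share in percent of each gene in the summed FPKM of 20 connexins and of 22 claudins, 1 bar per library, grouped by site and by unwounded skin or day 3 wound. Gjb2 takes means of 40.1% to 49.0% of the connexin sum in wounds, and the bar of the unwounded cheek of mouse 4 stands apart from its neighbours.

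Of the other 16 connexins, 9 were tested. In abdomen, back and cheek wounds, 3, 5 and 4 of them rose and 1 fell at each site, with median log2 changes of 0.19, 0.49 and 0.17. Gja4 and Gja5, connexins of arteries, rose by 0.60 to 0.91 on the log2 scale, and Gjb1, the connexin of liver and myelinating cells, by 2.15, 1.90 and 1.38. Gjc1 rose in back and cheek, and Gjc3 fell in abdomen (-0.48) and back (-0.52).

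Of the other 21 claudins of the list 18 were in the table and 9 were tested. None rose, and 5, 6 and 5 fell in abdomen, back and cheek wounds, with median log2 changes of -0.59, -0.88 and -0.56. The epithelial claudins Cldn3, Cldn8, Cldn10 and Cldn23 fell at all 3 sites, Cldn10 by 1.33, 1.62 and 1.62 on the log2 scale and Cldn3 by 1.15, 1.24 and 1.35. Among 15 other genes of the tight junction, 0, 2 and 0 rose and 6, 8 and 9 fell, with median log2 changes of -0.35, -0.37 and -0.40. Ocln, the occludin of these junctions, fell by 0.67, 0.43 and 0.65, and the junction plaque gene Cgn by 1.05, 1.11 and 1.05. F11r (0.49) and Jam3 (0.45), immunoglobulin adhesion molecules of junctions, rose in the back. Without cheek mouse 4 the counts of these 15 genes were 1 up and 8 down, 3 up and 8 down, and 1 up and 6 down, and 4 other claudins fell in the cheek. Of the 6 basal keratinocyte markers 1, 2 and 3 rose while 3, 3 and 1 fell, and the part of the keratinocyte makeup in these counts was not tested.

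Over 24 libraries, the genes whose level was most like those of the remaining members were Robo1 for Cldn1 (r = 0.946), Elf5 for Cldn4 (r = 0.894), Izumo4 for Cldn5 (r = 0.847), S100a7a for Gja1 (r = 0.893) and Apoc1 for Gjb5 (r = 0.923). Ocln was also among the most like Cldn1 (r = 0.932). Without the unwounded library of cheek mouse 4 (23 libraries), only the first gene for Gjb5 stayed the same, Apoc1 (r = 0.935). The first genes were then Ss18 for Cldn1 (r = 0.946) and Mst1 for Cldn4 (r = 0.898). For Cldn5 it was Car11 (r = 0.879), just ahead of Izumo4 (r = 0.878), and for Gja1 Hprt (r = 0.882). A change of first place can come from near-equal r, and the similarity was not computed with any other library left out. These are descriptions over libraries that share mice and states.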

How the data were processed

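RNA of full-thickness skin was sequenced on the BGISEQ-500 and, per the labels and the study's methods, the authors filtered reads, aligned them with HISAT2 and Bowtie2 2.2.5 and quantified genes with RSEM 1.2.12 on GRCm38. The deposited FPKM values, rounded to 2 decimals, are scaled to the mapped fragments of each library and carry no further scaling between libraries. Since the depth is unknown, depth-based intervals could not be given. A second deposited file holds the authors' DESeq2 fold changes and adjusted p-values for 9 comparisons and was not used. Here log2(FPKM + 0.5) of genes at 0.5 FPKM or more in at least 4 libraries was fitted with limma 3.58.1 (R 4.3.3, trended and robust variances) and adjusted by Benjamini-Hochberg over all genes tested. Wounds were compared with unwounded skin in 1 fit of 24 libraries with a term per mouse, since the labels tie both libraries to 1 animal (deviations of the 2 libraries correlated at -0.030 to 0.53, highest with the own partner in 11 of 12 mice). Sites were compared within 12 libraries of 1 state. The code was tested on simulated data. Members and gene lists were chosen with earlier results of these data known. Listed connexins and claudins called in a comparison could be named, and some are not reported here. Promoter windows and positions were taken from RefSeq (GRCm38.p6). No 2 libraries were identical (highest r = 0.988).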

Additional observations from a re-analysis of the deposited data

Results flagged for a closer look

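In groups of 4 libraries, a single library lay far from the other 3 (gap over range above the critical value for 4 samples) for 4 of the 48 combinations of gene and group, where chance alone gives about 1 in 20. In unwounded cheek this was mouse 4, with Gja1 at 226.15 FPKM (gap over range 0.888) and Gjb2 at 234.81 FPKM (0.960). In unwounded back it was mouse 1, with Gjb5 at 66.3 FPKM (0.83) and Gjb6 at 1.94 FPKM (0.906).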

How the results depend on the processing

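Gjb2 and Gjb6 were called higher in wounds at all 3 sites in all 12 fits that left out 1 mouse and in all 9 other settings run. The count of the 7 genes called in back wounds, 4, was 2 at an adjusted p under 0.001, without the filter, without the variance trend and with no replicate block, 5 with quantile normalization, 6 in the fit on the 8 libraries of the site, and 2 to 4 with 1 mouse left out (2 without abdomen mouse 2, 3 or 4 or back mouse 1, 3 or 4). That of cheek wounds, 3, was 1 at 0.001, 5 with quantile normalization and 2 to 4 with 1 mouse left out, and that of abdomen wounds 2 to 3. Unwounded back against abdomen went from 0 to 1 without cheek mouse 4 (range 0 to 1). Cheek against abdomen wounds, 2, gave 0 at 0.001 and with the replicate block across sites, where equal numbers name different animals, 1 without the filter, without the variance trend and in 1 fit of 24 libraries, and 0 to 2 with 1 mouse left out. Pairing changed no other count by over 1.5 times.

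Of single values 5 reversed, none of them called: Cldn5 in abdomen without mouse 1 (-0.43 to 0.018 with 1 mouse left out), Cldn4 in back with median-ratio scaling (-0.016), quantile normalization (-0.061) or without back mouse 4 (-0.050 to 0.15), and Gja1 in cheek without mouse 4 (-0.27 to 0.25). Cldn1 was called in 8, 4 and 10 of the 12 fits with a mouse left out at abdomen, back and cheek, and in 9, 6 and 8 of the 9 other settings. The cause of these moves was not tested.

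Of all genes called in back wounds 61.1% were higher, against 51.6% with median-ratio scaling and 45.7% with quantile normalization. For cheek against abdomen wounds these shares were 69.4%, 47.4% and 52.3%, and for abdomen wounds 51.4%, 52.8% and 41.0%. In unwounded skin, back set against abdomen gave 19.8%, 38.3% and 29.1%. Cheek gave 52.0%, 37.4% and 30.9% when set against abdomen and 53.1%, 24.7% and 22.7% when set against back. Back wounds set against abdomen wounds gave 39.9%, 50% and 45.9%, and cheek wounds set against back wounds gave 76.1%, 40.7% and 49.4%. Depth is unknown, so that Cldn7 and other genes under 0.5 FPKM cannot be compared. The similarity of genes and the family shares without the unwounded library of cheek mouse 4 were computed as an alternative chosen after seeing the data.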

Other observations

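Pannexins, channel proteins that resemble connexins, were counted beside them. Panx1, which releases ATP from cells, averaged 10.2, 10.4 and 10.2 FPKM in unwounded abdomen, back and cheek and 15.6, 16.7 and 14.8 FPKM in the wounds. It rose at all 3 sites (limma log2 changes 0.59, 0.66 and 0.52, adjusted p = 0.00251, 0.000604 and 0.00386) and in 12 of 12 mice. Panx2 stayed at or below 0.10 FPKM.

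Panx3, a pannexin of keratinocytes and skeletal cells, differed between sites. Unwounded abdomen held 37.6, 45.5, 43.2 and 23.0 FPKM and unwounded back 14.3, 10.1, 13.2 and 14.2 FPKM, without overlap (limma log2 difference -1.46, adjusted p = 0.0111). It was also lower in back wounds (-0.89, adjusted p = 0.0363) and cheek wounds (-0.83, adjusted p = 0.0163) than in abdomen wounds. In the cheek it fell in the wound, from 17.4, 21.0, 37.6 and 29.0 FPKM to 14.1, 17.1, 12.9 and 17.9 FPKM (-0.69, adjusted p = 0.00741). Its wound effect did not differ between the sites by the F test after adjustment (unadjusted p = 0.00910, adjusted p = 0.251).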
